A study of Mus musculus with 4 samples.

Results

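Interferon response genes are the genes that cells switch on after an interferon binds its receptor, together with the receptors, sensors and transcription factors that control them. A list of 39 such mouse genes was followed here, taken by gene symbol for their known function. Of these, 36 had a probe set annotated to that symbol alone and were measured, out of 19938 genes compared in all. Isg15 and Gbp2 were left out because their probe sets carry a second symbol, and Ifi44 because no probe set is annotated to it here. Irf1 had a second, weaker probe set, and the one with the higher mean was used.

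The samples were whole testes of male mice, 2 from Lhcgr knockout mice and 2 from control wild-type mice. All of the mice, controls included, had received busulfan at 44 mg/kg and were killed 4 weeks later. Busulfan is an alkylating drug given to remove germ cells. Lhcgr encodes the luteinizing hormone receptor, which drives testosterone synthesis in Leydig cells. The labels give no strain, age or type of knockout allele and do not tie replicates to separate animals. The p-values therefore reflect only how these samples vary, part of which may be technical. RNA was read on 1-colour Affymetrix whole-transcript arrays, and values are log2 of the deposited intensity. In whole tissue, fewer cells of a type and less RNA per cell cannot be told apart.

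Type I interferons signal through IFNAR1 and IFNAR2, and type II interferon through IFNGR1 and IFNGR2. Janus kinases at these receptors phosphorylate transcription factors such as STAT2, which together with IRF9 acts at the interferon-stimulated response element in target promoters. The gamma-activated site is the corresponding element in promoters that answer interferon gamma. In the testis, Sertoli cells, Leydig cells and macrophages are known to express such antiviral genes.

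None of the 36 genes passed the test between genotypes, higher or lower (limma, Benjamini-Hochberg adjusted p under 0.05). Of all genes, 3.10% passed, 0.963% higher and 2.14% lower. At an unadjusted p under 0.05, 7 of the 36 (19.4%) were reached, 3 higher and 4 lower, against 22.7% of all genes, 12.9% higher and 9.78% lower. The largest differences were those of Usp18 (log2 fold change, knockout over wild type, -0.61), Irf8 (-0.56), Dhx58 (-0.55) and Irf9 (0.55). Of the 36 values, 18 were above 0 and 18 below it, while over all 19938 genes 12090 were above 0 and 7848 below. The median of the 36 was 0.0030, and that of all genes 0.072. This order depended on weak genes. Without the lowest 25% of genes by mean intensity, the median was 0.039 for the 31 members left and 0.020 for all genes left. Without the lowest 50%, it was 0.039 for the 23 members left and -0.041 for all genes left. The comparisons with all 19938 genes in this paragraph were not matched for intensity. The 95% confidence interval of each of the 36, not adjusted for their number, lay within a 2-fold change in either direction, and that of 26 within a 1.5-fold change. These intervals rest on limma's variance, which is drawn toward that of all genes (4.65 prior beside 2 residual degrees of freedom). Intervals from each gene's own replicates alone were not computed. The median size of a member's difference between genotypes was 0.15 log2 units, beside median gaps of 0.13 between the knockout replicates and 0.14 between the wild-type ones. Over all genes the median size was 0.19, beside gaps of 0.14 and 0.13.

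**Figure D1:**
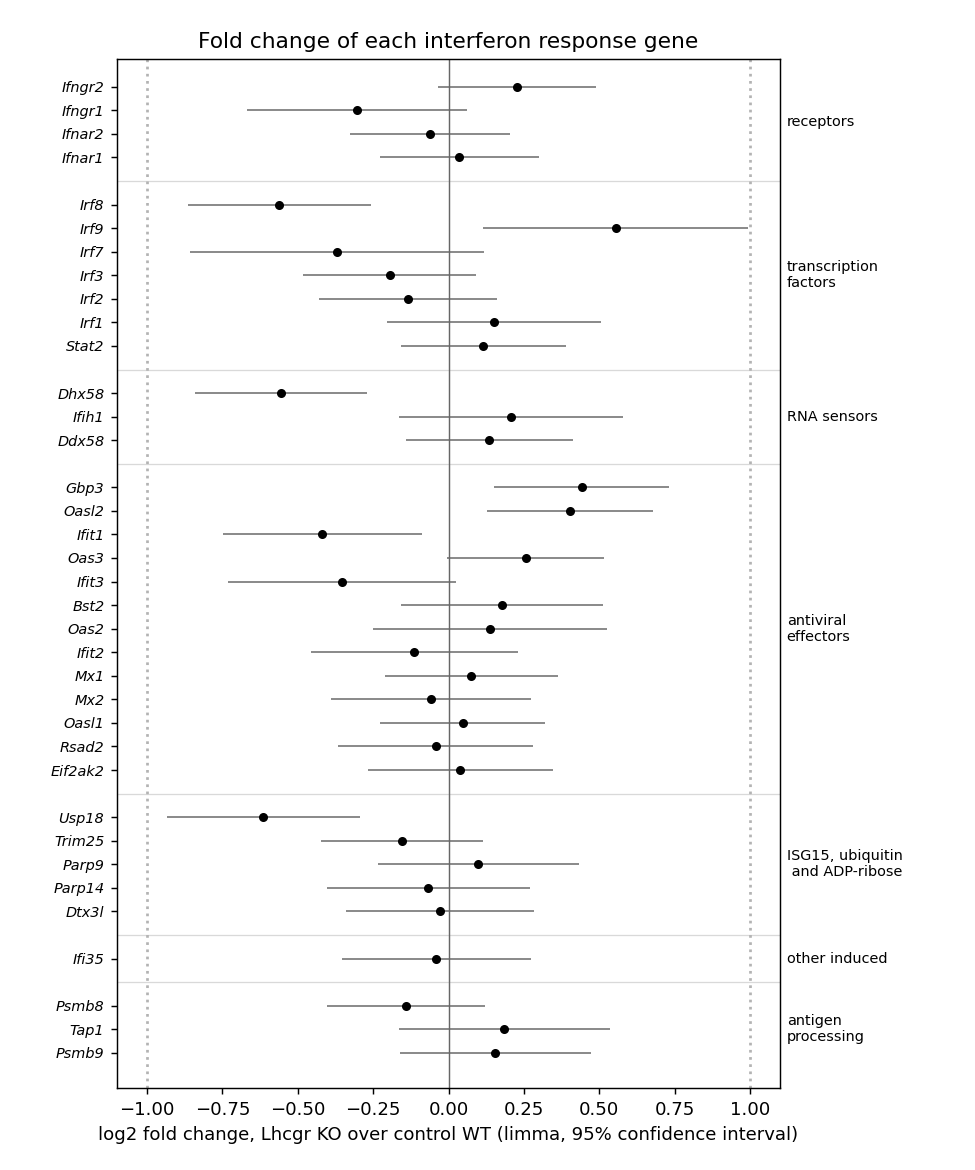
Log2 fold change of each of the 36 interferon response genes, Lhcgr knockout over control wild type, grouped by role. Bars are 95% confidence intervals from limma (2 arrays per group), whose variance is drawn toward that of all genes. Dotted lines mark a 2-fold change; all intervals lie between them, and Usp18, Irf8 and Dhx58 lie farthest to the left.

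Promoter sequences were read from RefSeq on GRCm38.p6 to show which of these genes carry the response element in view. A window of 250 bases before the annotated start was given for 29 of the 36 genes, 34 windows in all. Usp18, Dhx58, Mx1, Mx2, Oas2, Parp9 and Parp14 had no window and were not searched for motifs. The core of the interferon-stimulated response element was read as GAAA, any 2 bases and GAAA on either strand. It was found in 8 of the 29 genes (27.6%). Counted by window, it was in 8 of the 34, and in 2.98% of all 32851 windows of that length. These 8 genes were Bst2, Gbp3, Ifit1, Ifit3, Irf2, Oas3, Rsad2 and Stat2. The gamma-activated site, TTCNNNGAA, was also found in 8 genes. It was in 8 of the 34 windows, against 7.02% of all windows, and Bst2 and Irf2 held both motifs. The 3 antiviral effectors with the lowest p-values, Gbp3, Oasl2 and Ifit1, are shown with Oas3, which was added after its values were seen as an OAS family gene whose window holds the motif. Each runs 5′ to 3′ along the gene from 250 to 29 bases before the start, with matches to this core or its reverse complement in capitals. The last 28 bases are not shown because the annotated extent of the Gbp3 gene already begins there.
Gbp3, + strand, chr3:142559794-142560015: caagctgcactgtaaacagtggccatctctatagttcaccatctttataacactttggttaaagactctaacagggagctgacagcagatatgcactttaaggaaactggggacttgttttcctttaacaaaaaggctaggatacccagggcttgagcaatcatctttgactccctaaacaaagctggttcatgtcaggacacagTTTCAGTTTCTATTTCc
Oasl2, + strand, chr5:114896684-114896905: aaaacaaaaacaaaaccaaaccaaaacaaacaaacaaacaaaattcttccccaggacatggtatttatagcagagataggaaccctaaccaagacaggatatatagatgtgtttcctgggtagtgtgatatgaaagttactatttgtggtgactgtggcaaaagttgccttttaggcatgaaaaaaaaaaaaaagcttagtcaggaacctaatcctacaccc
Ifit1, + strand, chr19:34640639-34640860: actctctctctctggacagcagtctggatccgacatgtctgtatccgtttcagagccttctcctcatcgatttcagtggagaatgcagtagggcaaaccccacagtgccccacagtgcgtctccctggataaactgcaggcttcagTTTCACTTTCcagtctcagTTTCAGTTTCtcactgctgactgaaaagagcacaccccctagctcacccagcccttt
Oas3, - strand, chr5:120777688-120777909: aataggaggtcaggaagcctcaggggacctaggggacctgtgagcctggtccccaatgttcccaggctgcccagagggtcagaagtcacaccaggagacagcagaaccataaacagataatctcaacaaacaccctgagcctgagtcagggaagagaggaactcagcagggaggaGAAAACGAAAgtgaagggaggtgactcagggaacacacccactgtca

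In Gbp3 the matches lie between 45 and 30 bases before the start and overlap each other. Ifit1 holds separate matches, at 104 to 95 and at 85 to 76 bases before the start. Oas3 has a single match at 75 to 66 bases. The shown window of Oasl2 holds no match, which says only that these letters are not in it. Among the 8 genes with the element, 4 had values above 0 and 4 below, with a median log2 fold change of 0.037, and the 21 genes without it had a median of 0.035. Gbp3 and Oas3 were higher on both knockout arrays and Ifit1 lower on both, so genes with the same motif lay on opposite sides, none of them past the test.

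Among the 4 receptor chains, none passed the test. Ifngr2, the signalling chain of the interferon gamma receptor, measured 12.16 and 12.23 log2 units in the knockout and 11.98 and 11.96 in wild type. Both knockout values lay above both wild-type values, and the log2 fold change came to 0.23 ± 0.11 (SE, adjusted p = 0.264). Its partner Ifngr1, the ligand-binding chain, measured 10.19 and 10.21 log2 units in the knockout and 10.31 and 10.70 in wild type. Here both knockout values were the lower ones (log2 fold change -0.30 with an SE of 0.15, adjusted p = 0.277), and wild-type replicate 2 stood above the other 3 arrays. Its value was -0.11 without that array and -0.50 without wild-type replicate 1. Ifnar2 measured 10.51 and 10.48 log2 units in the knockout and 10.60 and 10.51 in wild type, with overlapping groups (log2 fold change -0.061 with an SE of 0.11, adjusted p = 0.745). Ifnar1 also overlapped, at a log2 fold change of 0.035 with a 95% interval from -0.23 to 0.30.

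The 7 transcription factors spanned log2 fold changes from -0.56 to 0.55, the widest range among the role groups, and none passed the test. Irf8, a factor of macrophage and dendritic cell development, measured 8.17 and 8.03 log2 units in the knockout and 8.76 and 8.56 in wild type. The groups did not overlap, and its log2 fold change was -0.56 ± 0.13 (SE, adjusted p = 0.0755). Irf9, the DNA-binding partner of STAT2, measured 9.38 and 9.13 log2 units in the knockout and 8.46 and 8.94 in wild type. It was higher on both knockout arrays (log2 fold change 0.55 with an SE of 0.18, adjusted p = 0.160), and the wild-type replicates lay 0.48 apart. Without wild-type replicate 2 the value of Irf9 was 0.79 and passed the test (adjusted p = 0.0462), and without wild-type replicate 1 it was 0.32 (adjusted p = 0.314). Over all alternatives its adjusted p ran from 0.0462 to 0.359. Irf7, which amplifies the production of type I interferon, measured 7.29 and 6.68 log2 units in the knockout and 7.26 and 7.45 in wild type. The knockout replicates differed by 0.60 and the groups overlapped (log2 fold change -0.37 with an SE of 0.20, adjusted p = 0.308). Its value was -0.67 without knockout replicate 1 and -0.069 without knockout replicate 2.

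The remaining factors differed less. Irf3, the latent factor that first induces interferon genes after virus sensing, had a log2 fold change of -0.20, and Irf2, an antagonist of Irf1, one of -0.14. In both genes the knockout arrays lay below the wild-type ones. Irf1 had one of 0.15, and its second probe set one of 0.29. Stat2, the partner of IRF9, had one of 0.12, with the knockout arrays above the wild-type ones.

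The 3 cytosolic RNA sensors lay on both sides of 0. Dhx58 encodes LGP2, which lacks the signalling domains of the other sensors and modulates them. It measured 6.41 and 6.28 log2 units in the knockout and 6.97 and 6.83 in wild type. Both knockout values lay below both wild-type values, and its log2 fold change was -0.55 ± 0.12 (SE, adjusted p = 0.0678). It passed after quantile normalization (adjusted p = 0.0382) and with a robust prior (adjusted p = 0.0476), and its adjusted p over all alternatives that tested it ran from 0.0382 to 0.309. Ifih1, encoding the sensor of long double-stranded RNA MDA5, measured 9.03 and 8.63 log2 units in the knockout and 8.67 and 8.58 in wild type, and the groups overlapped (log2 fold change 0.21 with an SE of 0.16, adjusted p = 0.425). Its value was 0.0095 without knockout replicate 1 and 0.41 without knockout replicate 2. Ddx58, encoding RIG-I, measured 9.16 and 9.11 log2 units in the knockout and 8.92 and 9.07 in wild type, with knockout values above wild type by less than the gap between the wild-type replicates (log2 fold change 0.14 with an SE of 0.12, adjusted p = 0.480).

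**Figure D2:**
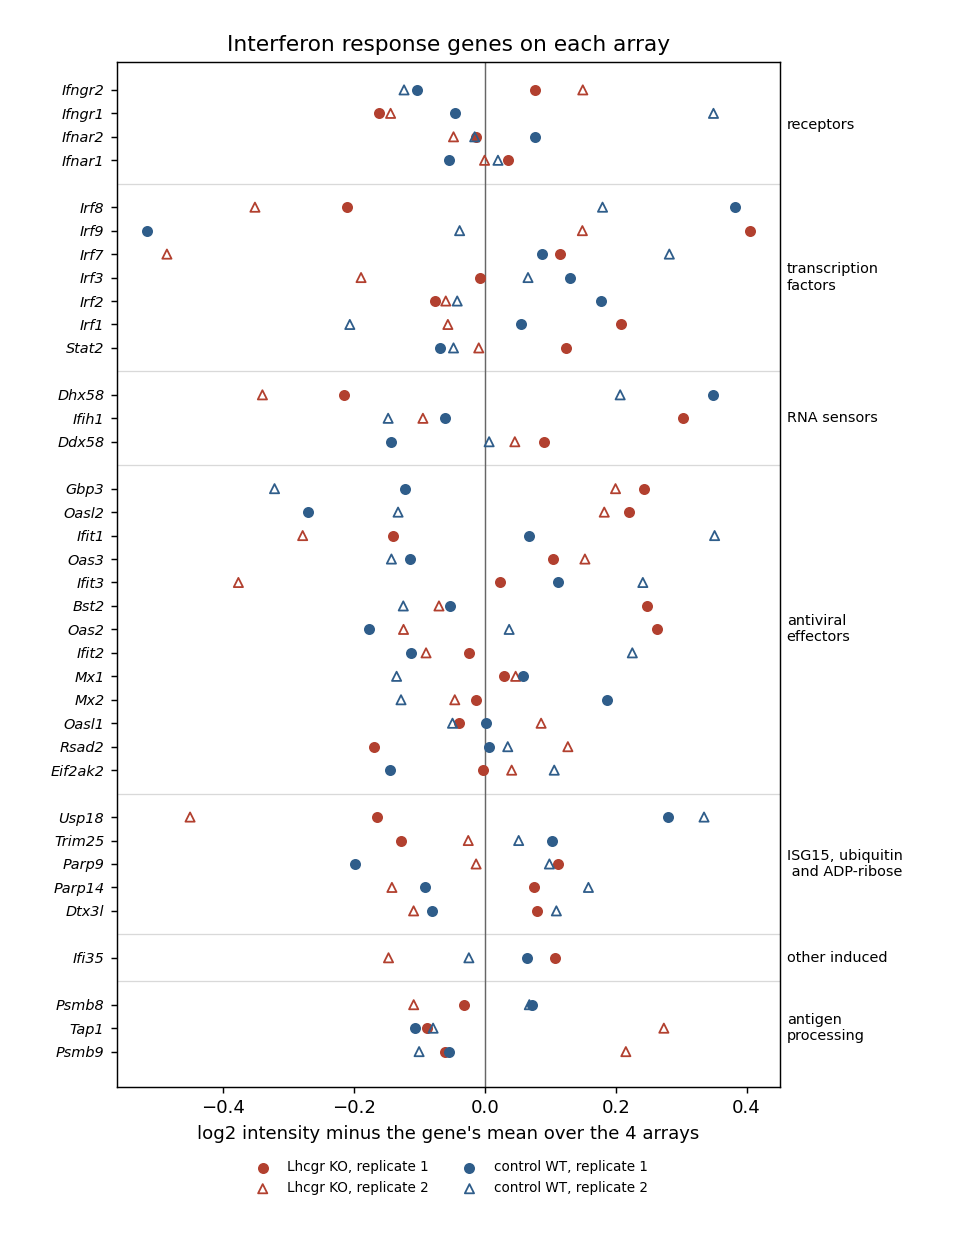
Log2 intensity of each gene on each of the 4 arrays, as the difference from that gene's mean over the arrays. Red marks are Lhcgr knockout and blue marks control wild type, with circles for replicate 1 and triangles for replicate 2. The groups overlap in 19 of the 36 genes (52.8%), with 7 higher and 10 lower on both knockout arrays. Of all genes, not matched to these 36 for intensity, 36.8% were higher and 22.4% lower on both.

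Of the 13 measured antiviral effectors, 8 had values above 0 and 5 below, and none passed the test. Gbp3, a guanylate-binding GTPase induced by interferon gamma, measured 8.27 and 8.23 log2 units in the knockout and 7.91 and 7.71 in wild type. It was higher on both knockout arrays (log2 fold change 0.44 with an SE of 0.12, adjusted p = 0.115). Oasl2, an oligoadenylate synthetase-like protein, measured 10.08 and 10.04 log2 units in the knockout and 9.59 and 9.72 in wild type, also higher on both (log2 fold change 0.40 with an SE of 0.11, adjusted p = 0.123). Ifit1, which binds RNA with a foreign 5′ end, measured 6.998 and 6.86 log2 units in the knockout and 7.21 and 7.49 in wild type. It was lower on both knockout arrays (log2 fold change -0.42 with an SE of 0.14, adjusted p = 0.159).

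The other members of these families differed less. The other IFIT genes had log2 fold changes of -0.35 for Ifit3 and -0.11 for Ifit2. Ifit3 has a near-identical neighbour, and its probe set can share signal with that copy. Among the oligoadenylate synthetases, which activate RNase L, Oas3 had 0.26, Oas2 0.14 and the related Oasl1 0.047. The dynamin-like GTPases Mx1 and Mx2 had 0.076 and -0.058, with overlapping groups in both. Rsad2 (viperin) had -0.042, the double-stranded RNA-dependent kinase Eif2ak2 0.039 and the tethering factor Bst2 0.18, again with overlapping groups. Rsad2, Mx1, Mx2, Ifit2 and Dhx58 were the 5 members among the weakest 25% of genes by mean intensity. No detection calls were used, so whether such weak values stand above background was not tested.

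Among the 5 measured genes of ISG15, ubiquitin and ADP-ribose modification, Usp18 stood lowest. It encodes the protease that removes ISG15 from proteins and also damps signalling at the type I receptor. Usp18 measured 7.88 and 7.59 log2 units in the knockout and 8.32 and 8.38 in wild type. The groups did not overlap, and its log2 fold change was -0.61 ± 0.13 (SE, adjusted p = 0.0693), with a 95% interval from -0.94 to -0.29. It passed with a robust prior (adjusted p = 0.0455), and its adjusted p over all alternatives ran from 0.0455 to 0.300. Trim25, the ubiquitin ligase of RIG-I, measured 9.37 and 9.47 log2 units in the knockout and 9.60 and 9.55 in wild type, lower on both knockout arrays (log2 fold change -0.15 with an SE of 0.11, adjusted p = 0.417). Parp9, an ADP-ribosyltransferase, measured 7.89 and 7.76 log2 units in the knockout and 7.58 and 7.87 in wild type with overlapping groups (log2 fold change 0.10 with an SE of 0.14, adjusted p = 0.673). Its partner ligase Dtx3l had -0.029 and Parp14 -0.067, and both overlapped.

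None of the 3 antigen-processing genes passed the test. Psmb8, a catalytic subunit of the immunoproteasome, measured 7.32 and 7.24 log2 units in the knockout and 7.42 and 7.42 in wild type, lower on both knockout arrays (log2 fold change -0.14 with an SE of 0.11, adjusted p = 0.444). Psmb9, another such subunit, measured 8.01 and 8.29 log2 units in the knockout and 8.02 and 7.97 in wild type, with overlapping groups (log2 fold change 0.15 with an SE of 0.13, adjusted p = 0.481). Tap1, a chain of the peptide transporter, measured 8.47 and 8.83 log2 units in the knockout and 8.45 and 8.48 in wild type, with knockout replicate 2 above the other 3 arrays (log2 fold change 0.19 with an SE of 0.15, adjusted p = 0.448). Ifi35, an interferon-induced leucine zipper protein, measured 8.17 and 7.91 log2 units in the knockout and 8.13 and 8.04 in wild type and overlapped (log2 fold change -0.040 with an SE of 0.13, adjusted p = 0.860).

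Counted over the 36 genes, knockout lay above wild type on every array in 7 (19.4%) and below it in 10 (27.8%). The corresponding shares were 36.8% and 22.4% of all genes. The difference of means was larger than both replicate gaps in 5 genes upward (Ifngr2, Irf9, Gbp3, Oasl2 and Oas3) and in 7 downward (Irf8, Irf3, Dhx58, Ifit1, Usp18, Trim25 and Psmb8). That is 13.9% and 19.4% of the members, against 27.4% and 17.4% of all genes. These shares of all genes were not matched to the members for intensity. The weakest 25% of all genes had a median log2 fold change of 0.17 and the brightest 25% one of -0.050. Of the 36 members, 13 lay among the weakest 50% of genes. The part of intensity in the lower share of upward members was not tested.

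**Figure D3:**
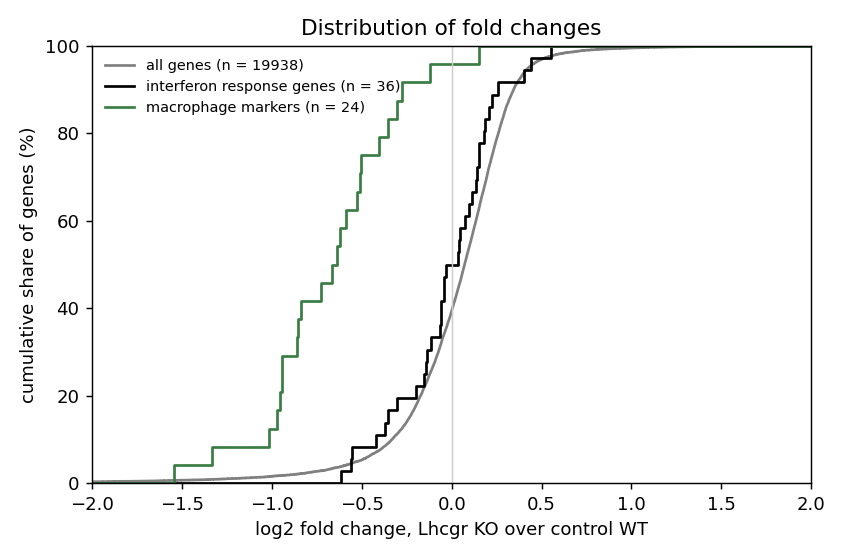
Cumulative share of genes (vertical axis, percent) against log2 fold change, Lhcgr knockout over control wild type, for all 19938 genes, the 36 interferon response genes and 24 macrophage markers. The interferon curve runs beside that of all genes between -0.61 and 0.55, and the macrophage curve lies to the left with a median of -0.65.

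A further 105 genes of the pathway were taken by function, and 88 of them were measured. Of these 88, 1 passed the test, lower, and none passed higher, against 2.14% and 0.963% of all genes. At an unadjusted p under 0.05, 14 were higher and 10 lower, against 12.9% and 9.78% of all genes. The median log2 fold change of the 88 was 0.051, beside 0.072 for all genes. Ly6e, an interferon-induced membrane protein anchored by a lipid, fell in the knockout. It measured 11.30 and 11.43 log2 units in the knockout and 11.95 and 12.15 in wild type, which is -0.69 ± 0.13 on the log2 fold change scale (SE, adjusted p = 0.0422). It no longer passed after quantile normalization or when wild-type replicate 2 or either knockout array was left out, where its adjusted p reached 0.204.

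Of 15 measured interferon ligands none passed the test, and 14 had values above 0, with a median of 0.22. Over all genes, 12090 of 19938 had values above 0. The log2 fold change of Ifna14 was 0.50 ± 0.14 (SE, adjusted p = 0.112) and that of Ifng, interferon gamma, was 0.37 ± 0.11 (adjusted p = 0.135), both higher on both knockout arrays. The Ifna genes are near-identical copies and their probe sets can share signal. Of these 15 ligands, 9 lay among the weakest 25% of genes, whose median was 0.17, while the brightest 25% had a median of -0.050. The ligands' median was 0.13 without wild-type replicate 2 and 0.37 without wild-type replicate 1, and the part of the general shift in the ligand values was not tested.

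Of 11 signalling genes none passed, with 8 below 0, beside 7848 of all 19938 genes. Jak2, a kinase at the interferon gamma receptor, stood at -0.46 ± 0.12 on the log2 fold change scale (SE, adjusted p = 0.0975), and Jak1, which serves both receptor types, at 0.23 ± 0.11 (adjusted p = 0.261). Of 11 sensing and adaptor genes none passed, and 9 were below 0. Myd88, the adaptor of most Toll-like receptors, stood at -0.57 ± 0.12 (adjusted p = 0.0569). It passed without the lowest 25% or 50% of genes, with a trended or robust prior and with an offset of 32 (adjusted p from 0.0379 to 0.0472), and its adjusted p reached 0.238 over all alternatives. Tlr7, a receptor for single-stranded RNA, stood at a log2 fold change of -0.79 with an SE of 0.17 (adjusted p = 0.0668). Without wild-type replicate 1, Tlr7 passed (-1.02, adjusted p = 0.00862), as it did with a robust prior (adjusted p = 0.0390), and over all alternatives that tested it its adjusted p ran up to 0.342. Of 9 class I presentation genes none passed. Nlrc5, an activator of class I genes, stood at 0.42 ± 0.12 (adjusted p = 0.118) and Tapbp, tapasin, at -0.21 ± 0.11 (adjusted p = 0.307).

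**Figure D4:**
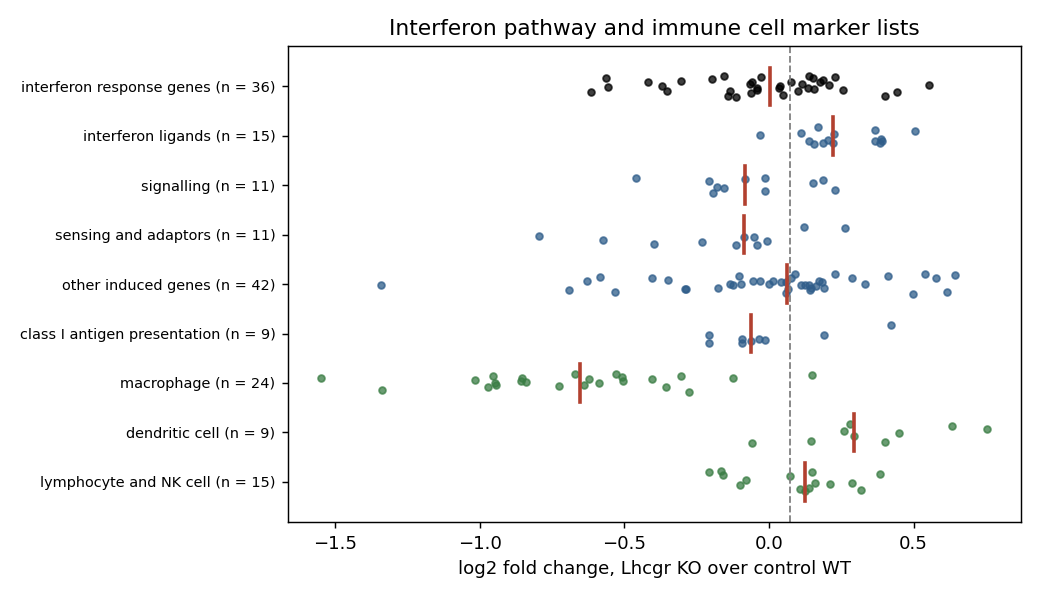
Log2 fold change, Lhcgr knockout over control wild type, of each gene in the interferon response list (black), the other pathway lists (blue) and immune cell marker lists (green). Red bars are list medians and the dashed line is the median of all genes, 0.072; the interferon response genes centre near 0 and the macrophage markers at -0.65.

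Leydig cell and macrophage markers moved with genotype beside these values. Of all genes, 2.14% fell and 0.963% rose, and 22.4% were lower and 36.8% higher on both knockout arrays. Of 14 Leydig cell markers, 6 fell and none rose, and 10 were lower on both knockout arrays, with a median log2 fold change of -1.53. The count that fell was 7 without wild-type replicate 1 (where 2 rose), 10 without wild-type replicate 2, and 2 when either knockout array was left out. Their summed intensity was 9502 to 12646 in the knockout and 20101 to 38490 in wild type. The part of these markers in the values of the interferon response genes was not tested. The median of the macrophage markers was -0.65. Of the 24 measured, 7 fell and none rose, and 22 were lower on both knockout arrays. The count that fell was 5 without wild-type replicate 2, 17 without wild-type replicate 1, and 0 when either knockout array was left out. Their summed intensity was 8320 to 8575 in the knockout and 13163 to 16577 in wild type. The macrophage markers' part in the values of the interferon response genes and other pathway genes was not tested. Dendritic cell markers lay on the other side, with 8 of 9 above 0 and a median of 0.29. Of 9 dendritic cell markers, 2 rose (Flt3 and Zbtb46), but 1 without wild-type replicate 2 and 0 when either knockout array was left out. Of 15 lymphocyte and natural killer cell markers none passed, with summed intensities of 2156 to 2256 in the knockout and 1929 to 2221 in wild type.

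Wild-type replicate 2 stood apart in markers of the epididymis and rete testis. There 10 of 18 such markers were more than 1 log2 unit above every other array, and none of the 36 interferon response genes was. Among the other pathway genes 1 was, Isg20, an exonuclease named here after its values were seen. It measured 9.39 log2 units on that array against 6.88 to 7.22 on the others. Sertoli cell markers summed to between 41331 and 44136 intensity units on the 4 arrays. Of 14 such markers 10 were higher and 2 lower on both knockout arrays, against 36.8% and 22.4% of all genes. Amh rose (log2 fold change 0.80, adjusted p = 0.0398) while Trf fell (log2 fold change -2.29, adjusted p = 0.00746). When either knockout array was left out none of the 14 was called, and without wild-type replicate 1 there was 1 lower call and no higher one. Without wild-type replicate 2 the median of the 36 genes was 0.039, with 1 gene, Irf9, past the test. Lhcgr itself was not analysed here, and no check of the genotype labels rests on it.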

How the data were processed

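Total RNA from testes was read on 1-colour whole-transcript arrays after biotin labelling, per the labels' protocols. The authors deposited linear intensities, 1 for each probe set on each array, with array medians from 198 to 215. How these were background-corrected, summarized and normalized is not given in the sources used here, and the submitters' processing notes name the build mm9. Of 28856 probe sets, 21789 carry 1 gene symbol, 1621 several and 5446 none listed in the platform annotation. The 21789 stand for 19938 genes, and the probe set with the highest mean was used for each. Through the Entrez number, 21698 matched RefSeq genes on GRCm38.p6 and 0 symbols changed.

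Intensities were taken to log2 and fitted with limma 3.58.1 in R 4.3.3 (lmFit, eBayes, no covariates, 2 residual and 4.65 prior degrees of freedom). Standard errors and intervals therefore draw on the spread of all genes as well as on each gene's own replicates. Two-sided p-values were adjusted across all 19938 genes by the Benjamini-Hochberg method at a threshold of 0.05. The procedure was tested on simulated data, and the outcome is not reported here. Detection calls were not used, and 2 arrays per group limit the precision. The interferon genes, the lists and the tests were chosen with earlier results of these data known. All measured members are named, with array values for the 3 lowest p-values in each role group. Of the further pathway genes those past the threshold are named, or the 2 with the lowest p in a list where none passed. No set test was run. Alternatives were quantile normalization, median centring, leaving out the lowest 25% or 50% of genes, averaged or separate probe sets, a trended or robust prior, an offset of 32, the replicate number as a block, each array left out in turn and a threshold of 0.1.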

Additional observations from a re-analysis of the deposited data

How the results depend on the processing

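Counts of interferon response genes stayed at 0 in each direction under most alternatives. Lower calls were 1 after quantile normalization (Dhx58), 2 with a robust prior (Dhx58 and Usp18) and 3 at a threshold of 0.1 (Irf8 added). Over all 19938 genes, lower calls under these settings were 396, 540 and 762. Leaving out an array gave 0 to 1 higher. Of the 36 genes, 24 kept their sign under every alternative run. After quantile normalization Mx1 was at -0.072 and Oasl1 at -0.030. When an array was left out, the sign changed in Ifnar1 (-0.0027 to 0.073), Oas2 (-0.055 to 0.33), Ifit2 (-0.28 to 0.056), Mx1 (-0.021 to 0.17), Mx2 (-0.22 to 0.099), Oasl1 (-0.015 to 0.11), Rsad2 (-0.19 to 0.11), Eif2ak2 (-0.087 to 0.16), Parp9 (-0.049 to 0.25), Parp14 (-0.19 to 0.058), Dtx3l (-0.12 to 0.066) and Ifi35 (-0.17 to 0.087). The cause was not tested.

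Other pathway genes were called higher and lower as follows: 1 and 2 without the lowest 25% of genes, 1 and 3 without the lowest 50%, 2 and 2 with a trended prior, 2 and 5 with a robust prior, 1 and 2 with an offset of 32, and 4 and 6 at a threshold of 0.1. Leaving out an array gave 0 to 2 higher and 0 to 3 lower. Their median was -0.0052 and -0.024 without the lowest 25% and 50% of genes, and 0.0084 to 0.068 when an array was left out. Of the 88 other pathway genes, 73 and 46 stayed without the lowest 25% and 50%. Over all genes, 212 and 450 of 14954 were called without the lowest 25%, and 199 and 409 of 9969 without the lowest 50%. Higher and lower counts were 247 and 532 with a trended prior, and 266 and 540 with a robust one. With an offset of 32 they were 232 and 507. In the main fit of all 19938 genes, 192 were higher and 426 lower, and 482 and 762 at a threshold of 0.1. Leaving out an array gave 2 to 313 higher and 16 to 726 lower, the lowest counts being those without a knockout array, where 1 array is assumed to vary like the other group.

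The replicate numbers share only a number: the differences between replicates 1 and 2 correlated at 0.021 between genotypes over all genes. With the number as a block, 173 genes were higher and 399 lower, and 0 members were called in either direction.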
